A study of Mus musculus with 6 samples.

Results

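Leptin and 6 other adipokines, the hormones and secreted proteins of fat tissue, were followed in adipose tissue of mice whose feed was supplemented with RAS, the medicinal root named radix Angelica sinensis in the series title. The 7 genes were chosen by name: Lep, Adipoq, Retn, Cfd, Rarres2, Nampt and Apln. All 7 were found among the 19928 genes of the deposited table, and all 7 were among the 12606 genes tested. The RAS group was 3 samples of adipose tissue from KM mice whose diet held RAS, labelled as 10.00 g for each kg of body weight, and the control group was 3 samples of adipose tissue from KM mice labelled control. The title of the series places the mice on a high-fat diet and asks about an effect of the root on obesity. The sources used here do not give the depot, sex, age or hour of sampling, nor do they say whether a sample is 1 animal or a pool. P-values therefore measure the spread between these samples, which may be technical.

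Adipokines carry information from fat to other organs. Leptin is made by fat cells in proportion to their store and acts on the brain to restrain feeding. Adiponectin circulates as multimers and promotes fatty acid oxidation and insulin action through its receptors in liver and muscle. Resistin, adipsin (complement factor D) and chemerin link fat to inflammation, complement and immune cell traffic. Nampt makes a precursor of the cofactor NAD and is also found outside cells as visfatin. Apelin is a small peptide that acts on a receptor of blood vessels and heart and is secreted by fat cells and endothelial cells.

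The promoters of 3 members are shown because the group difference in Lep and Apln ran one way and that in Adipoq did not. Of the 7 members, 6 had an entry in the RefSeq promoter table (GRCm38.p6). Each sequence is the 250 bases before the transcription start, written along the gene's own strand, with matches to 5 textbook motifs in capitals. The motifs, searched on both strands, were TATAA (the TATA box core), TTGCGCAA (a palindrome bound by C/EBP factors), GGGCGG (the GC box), CCAAT (the CCAAT box) and CACGTG (the E-box).
Lep, chr6:29059971-29060220, plus strand: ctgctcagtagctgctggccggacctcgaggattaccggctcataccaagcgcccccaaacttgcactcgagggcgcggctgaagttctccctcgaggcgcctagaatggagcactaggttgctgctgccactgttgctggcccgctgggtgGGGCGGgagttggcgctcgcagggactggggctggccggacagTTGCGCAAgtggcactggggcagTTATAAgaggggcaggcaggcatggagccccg
Apln, chrX:48034854-48035103, minus strand: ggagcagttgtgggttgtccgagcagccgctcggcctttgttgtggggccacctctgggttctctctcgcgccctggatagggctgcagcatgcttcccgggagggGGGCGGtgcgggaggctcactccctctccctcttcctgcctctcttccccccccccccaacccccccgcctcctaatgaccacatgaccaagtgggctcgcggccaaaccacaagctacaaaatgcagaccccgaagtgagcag
Adipoq, chr16:23146286-23146535, plus strand: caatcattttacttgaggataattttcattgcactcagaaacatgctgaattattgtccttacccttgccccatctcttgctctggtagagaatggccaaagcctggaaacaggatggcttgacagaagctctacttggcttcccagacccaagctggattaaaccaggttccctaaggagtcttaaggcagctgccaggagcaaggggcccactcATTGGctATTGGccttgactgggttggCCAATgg

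The Lep window held the C/EBP palindrome 48 to 55 bases before the start, a TATA match on each strand that overlap each other 27 to 32 bases before it, and a GC box 93 to 98 bases before it. The palindrome was present in 54 of 32851 promoters of the same length (0.164%), against 22.8% for TATAA and 32.7% for the GC box. Apln had a GC box 139 to 144 bases before the start and no other match. Adipoq had 3 CCAAT matches within 34 bases of the start, a motif present in 33.9% of promoters. Nampt, whose groups overlapped, also had GC boxes, among them 5 to 10 and 109 to 114 bases before the start. Retn and Cfd had no match to the 5 motifs. The E-box, present in 6.02%, was matched in none of the 6 member promoters searched. A relation between motifs and group differences was not tested. A match is a description of the letters and not a binding site. The mRNAs of 3 C/EBP factors, chosen after their values were seen, were measured in the same libraries. The part of these factors in the level of Lep was not tested. Cebpa, which encodes an activator of the leptin gene, averaged 268 ± 3.59 FPKM in RAS samples and 267 ± 38.4 FPKM in control samples (SD, n = 3 each, as below). Its relative Cebpb averaged 56.3 ± 33.3 FPKM in RAS samples and 56.1 ± 10.9 FPKM in control samples. Cebpb was at 34.6, 39.8 and 94.6 FPKM in RAS 1, 2 and 3. In controls 1, 2 and 3 it was at 67.4, 55.2 and 45.7 FPKM. RAS 1 and 2 thus lay below every control library and RAS 3 above them all. Cebpd averaged 16.5 ± 10.7 FPKM in RAS samples and 10.6 ± 3.97 FPKM in control samples. Its highest library was RAS 3, at 28.6 FPKM. The log2 difference of Cebpd ran from 0.02 to 0.83 when 1 library was left out.

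FPKM values (fragments scaled by transcript length in kilobases and by the mapped total of the library) allow for length, so levels can be set side by side between genes. The 7 genes covered a wide range of level, and their order was nearly the same in every library. Cfd was the most abundant member in all 6 libraries, between rank 3 and rank 6 of all genes in the table. Adipoq, between rank 9 and rank 11, and Retn, between rank 6 and rank 12, came next and exchanged places: Adipoq stood above Retn in RAS 3 and control 2, and below it in the other libraries. Rarres2 and Lep followed, between 293 and 615 FPKM. Lep stood above Rarres2 in control 1 and below it in the other 5 libraries, though in control 2 the 2 genes were level at 448 and 449 FPKM. Nampt lay near 30 FPKM and Apln below 10 FPKM. Summed over the 7 genes, adipokine mRNA came to 8960, 11659 and 15946 FPKM in RAS 1, 2 and 3, against 11436, 11633 and 11369.5 FPKM in controls 1, 2 and 3. In these sums the control libraries were close together and the RAS libraries lay on both sides of them. The FPKM total over all genes also differed, from 411840 in control 2 to 545256 in RAS 3. As a share of that total the 7 genes came to 1.89, 2.60 and 2.92% in RAS 1, 2 and 3. In controls 1, 2 and 3 the share was 2.38, 2.82 and 2.49%, so on this scale the controls were less close.

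**Figure D1:**
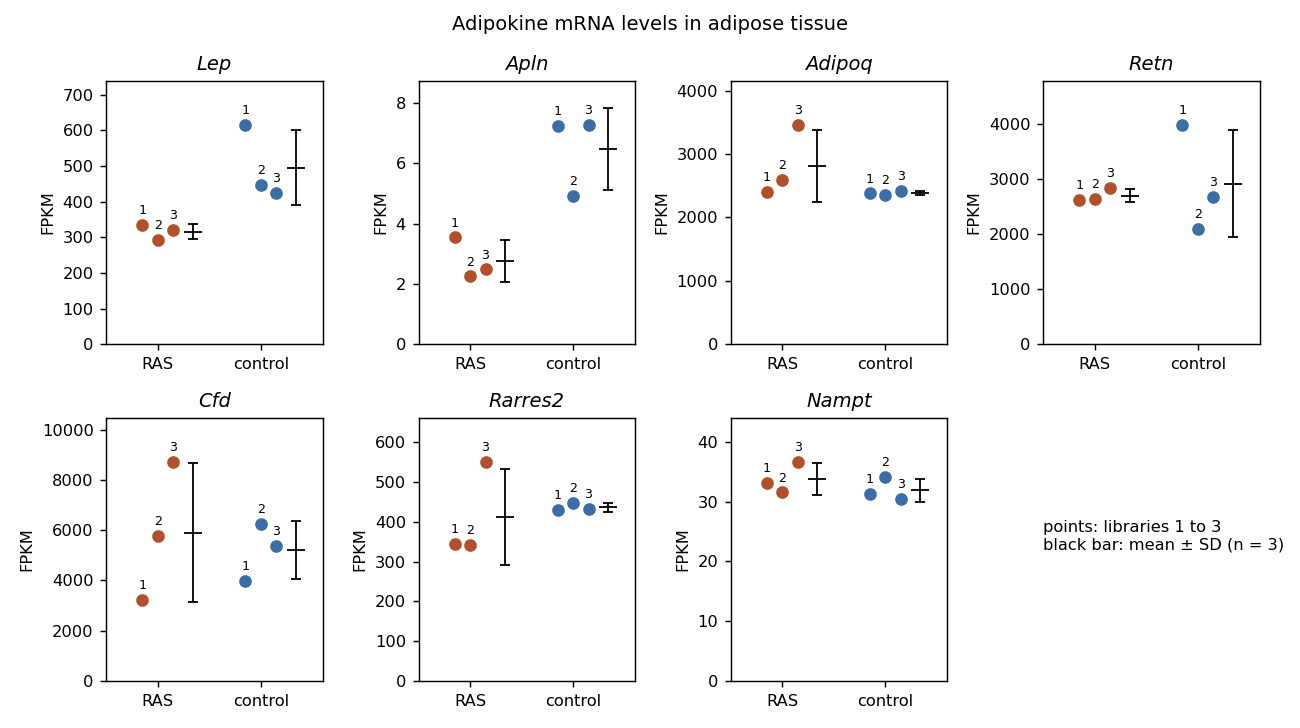
FPKM of each adipokine gene in the 3 RAS libraries (left) and the 3 control libraries (right), numbered by library, with the mean and SD as a black bar. For Lep and Apln every RAS point lies below every control point; for the other 5 genes the groups overlap.

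Lep and Apln stood below all 3 control libraries in all 3 RAS libraries, and the other 5 genes overlapped between groups. None of the 7 passed the test. In limma's moderated test on log2(FPKM + 1), 0 of 12606 genes had a Benjamini-Hochberg adjusted p under 0.05, and 1294 (10.3%) had an unadjusted p under 0.05; when the authors' scaled counts replaced FPKM, limma gave 0 and 1303. Of the 7 members, 2 had an unadjusted p under 0.05, both lower with RAS, where 6.41% of all genes tested were lower and 3.86% higher at that level. Groups with no overlap in FPKM were seen for 2 of 7 members and 17.9% of all genes tested. With RAS lower these were 2 of 7 members and 12.5% of all genes tested, and with RAS higher 0 of 7 members and 5.42%. The median log2 difference was -0.06 over the 7 members and -0.04 over all genes tested. In a bulk sample, fewer cells of a type and less RNA per cell cannot be told apart.

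Lep encodes leptin (NCBI gene 16846; chromosome 6, 29060221 to 29073876, plus strand). It was at 334, 293 and 320 FPKM in RAS 1, 2 and 3, against 615, 448 and 424 FPKM in controls 1, 2 and 3. The RAS libraries were closely grouped, and the highest of them was below the lowest control library; control 1 was the highest of all. The RAS mean was 0.637 of the control mean. On the log2(FPKM + 1) scale the difference was -0.63 ± 0.19 (SE, 95% interval -1.08 to -0.18, unadjusted p = 0.0124, limma adjusted p = 0.369). Lep was lower in 3 of 3 RAS libraries. It stood at place 419 of the tested genes in order of p. Lep rested on 17149 to 36279 reads per library, so counting error is small beside the spread between libraries. Among all genes of the table ordered by FPKM, Lep held ranks 197, 212 and 250 in RAS 1, 2 and 3, against ranks 84, 114 and 148 in controls 1, 2 and 3.

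The level of Lep was also set against fat cell genes in the same libraries. The mean log2(FPKM + 1) of 18 mature adipocyte markers was 9.32, 9.22 and 9.08 in RAS 1, 2 and 3, against 9.40, 8.87 and 8.86 in controls 1, 2 and 3. The marker levels overlapped, with control 1 highest. Their mean over RAS libraries was 0.16 above that over control libraries, and this shift enters the subtraction below. Lep minus that mean was -0.93, -1.02 and -0.75 in the RAS libraries, against -0.14, -0.06 and -0.13 in the control libraries. The control libraries, spread in both Lep and the markers, lay close together on this scale, and the difference between group means was -0.79. This subtraction was added after the values were seen, and no test was run on it. The same subtraction gave a difference of 0.06 for Adipoq, -0.22 for Retn, -0.07 for Cfd, -0.28 for Rarres2, -0.08 for Nampt and -1.15 for Apln.

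Apln encodes apelin (NCBI gene 30878; chromosome X, 48025146 to 48034852, minus strand). It was at 3.54, 2.25 and 2.48 FPKM in RAS 1, 2 and 3, against 7.23, 4.90 and 7.27 FPKM in controls 1, 2 and 3. All RAS libraries lay below all control libraries, and RAS 1 came closest to control 2. The RAS mean was 0.426 of the control mean. On the log2(FPKM + 1) scale, which understates changes of low genes, the difference was -0.99 ± 0.19 (SE, 95% interval -1.43 to -0.55, unadjusted p = 0.00102, limma adjusted p = 0.240). Apln was lower in 3 of 3 RAS libraries. By p it stood at place 52 of the tested genes, ahead of Lep. Apln rested on 119 to 414 reads per library, the fewest of the 7 members. The mean log2(FPKM + 1) of 12 endothelial markers, a second cell type that makes apelin, was 4.78 ± 0.16 in RAS samples and 4.84 ± 0.14 in control samples, and Apln minus that mean differed by -0.93 between groups, a value given without a test.

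**Figure D2:**
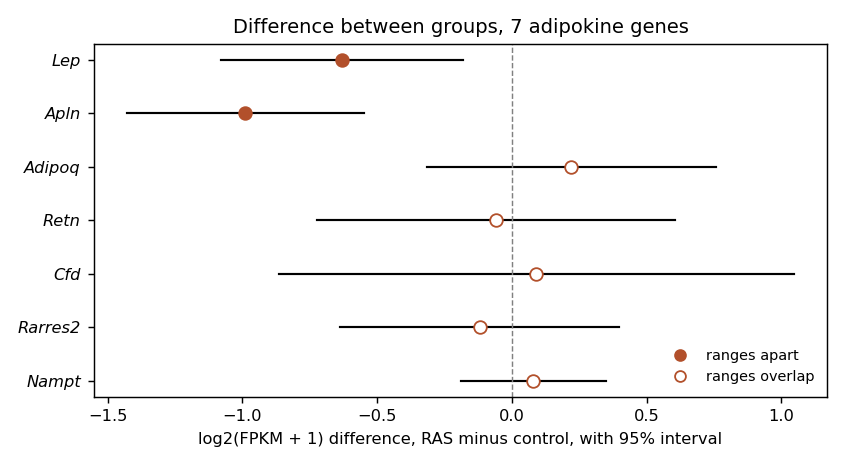
Log2(FPKM + 1) difference of each adipokine gene, RAS minus control, with its unadjusted 95% interval from limma; filled points mark genes whose groups did not overlap. The intervals of Lep and Apln lie below 0, and those of the other 5 genes include 0.

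Adipoq encodes adiponectin (NCBI gene 11450; chromosome 16, 23146536 to 23157968, plus strand). It was at 2399, 2585 and 3460 FPKM in RAS 1, 2 and 3, against 2379, 2357 and 2419 FPKM in controls 1, 2 and 3. The control libraries were close together (coefficient of variation 1.32%), and RAS 3 stood above all others while RAS 1 lay inside the control range. The log2 difference was 0.22 ± 0.23 (SE; 95% interval -0.32 to 0.76; limma adjusted p = 0.758), and it was 0.06 without RAS 3. On a linear scale the interval runs from a ratio of 0.803 to 1.69. A p above the threshold does not show that the groups were alike.

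The ratio of leptin to adiponectin mRNA was computed within each library. Lep came to 139, 113 and 92.5 FPKM per 1000 FPKM of Adipoq in RAS 1, 2 and 3, against 259, 190 and 175 in controls 1, 2 and 3. Every RAS library lay below every control library. The log2 ratio averaged -3.14 ± 0.30 in RAS samples and -2.28 ± 0.30 in control samples (SD, n = 3 each), a difference of -0.85. The two-sided exact permutation test gave p = 0.1, which is the smallest value this permutation test can give with 3 samples against 3, so it cannot reach 0.05. The ratio shares its Lep values with the comparison above and is not separate evidence.

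**Figure D3:**
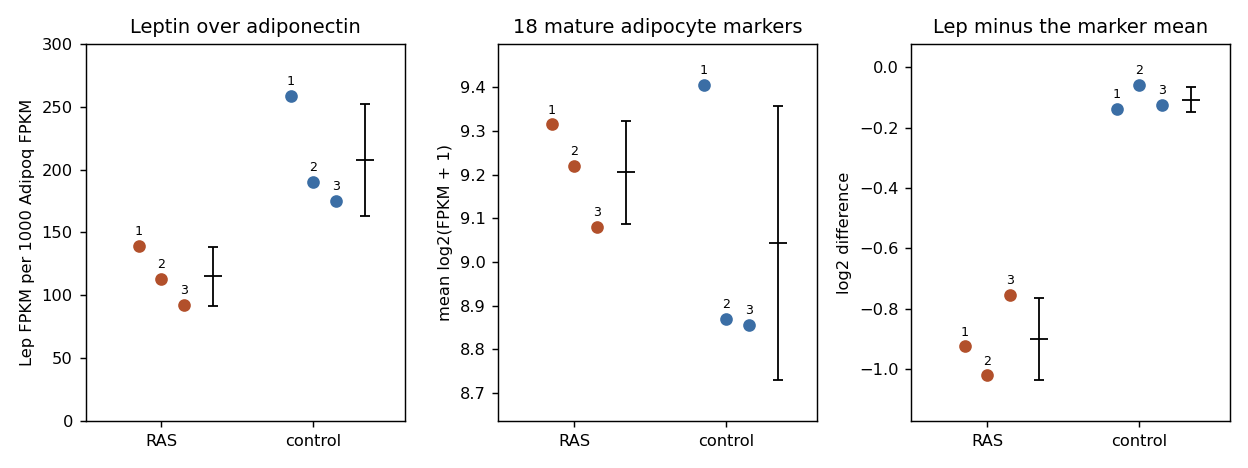
Left, Lep FPKM per 1000 FPKM of Adipoq in each library; centre, the mean log2(FPKM + 1) of 18 mature adipocyte markers; right, log2(FPKM + 1) of Lep minus that mean. RAS libraries are on the left of each panel, numbered, with mean and SD in black; the axes of the centre and right panels do not start at 0. The groups overlap in the centre panel and are apart in the other panels.

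Retn encodes resistin, which opposes insulin action in mice (NCBI gene 57264; chromosome 8, 3655770 to 3659818, plus strand). It was at 2621, 2635 and 2841 FPKM in RAS 1, 2 and 3, against 3982, 2087 and 2671 FPKM in controls 1, 2 and 3. The RAS libraries were tightly grouped inside the control range, whose ends were controls 1 and 2. The log2 difference was -0.06 ± 0.28 (SE; 95% interval -0.72 to 0.61; limma adjusted p = 0.958) and changed sign without control 1 (0.19) and with sample weights (0.03).

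Cfd encodes adipsin, the protease that starts the alternative complement pathway by cleaving factor B (NCBI gene 11537; chromosome 10, 79890853 to 79892656, plus strand). It was at 3225, 5770 and 8734 FPKM in RAS 1, 2 and 3, against 3992, 6253 and 5385 FPKM in controls 1, 2 and 3. The lowest and the highest library of the study were both RAS libraries. Cfd had the largest spread of the 7 members within RAS samples, a coefficient of variation of 46.7%, and the log2 difference was 0.09 ± 0.41 (SE; 95% interval -0.86 to 1.05; limma adjusted p = 0.956). Its sign turned without RAS 3 (-0.25), without control 1 (-0.09), under quantile normalization (-0.11) and with sample weights (-0.25), so no direction can be given.

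Rarres2 encodes chemerin, which is secreted as a precursor and cut at its end by proteases (NCBI gene 71660; chromosome 6, 48554799 to 48572670 in the table). It was at 344, 342 and 552 FPKM in RAS 1, 2 and 3, against 429, 449 and 432 FPKM in controls 1, 2 and 3. The control libraries stood close together, RAS 1 and 2 below them and RAS 3 above them. The log2 difference was -0.12 ± 0.22 (SE; 95% interval -0.64 to 0.40; limma adjusted p = 0.876), and without RAS 3 it was -0.35 (unadjusted p = 0.048, limma adjusted p = 0.512). Its locus in the table is shared with Lrrc61, listed at 7.20 to 10.8 FPKM, and reads in any overlap cannot be separated here.

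Nampt encodes nicotinamide phosphoribosyltransferase, the rate-limiting enzyme of NAD salvage (NCBI gene 59027; chromosome 12, 32820335 to 32853369, plus strand). It was at 33.2, 31.5 and 36.7 FPKM in RAS 1, 2 and 3, against 31.3, 34.1 and 30.4 FPKM in controls 1, 2 and 3. The groups overlapped, and Nampt was the steadiest member, its highest library at 1.21 times its lowest. The log2 difference was 0.08 ± 0.11 (SE; limma adjusted p = 0.837) with the narrowest 95% interval of the 7 genes, -0.19 to 0.35, which on a linear scale is a ratio of 0.877 to 1.27. The authors' scaled counts gave 0.21. The locus of Nampt is shared in the table with Gdap10, a noncoding RNA gene, at 0.788 to 1.99 FPKM.

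RAS 3 was the highest of the 6 libraries for Adipoq, Cfd, Rarres2 and Nampt. Its FPKM total over all genes was the highest too, 545256 against 411840 to 481212 in the other libraries. RAS 3 also had the highest sum of 8 brown adipocyte markers, 1109 FPKM, against 182 and 259 FPKM in RAS 1 and 2 and 371, 164 and 90.01 FPKM in controls 1, 2 and 3. Control 1 was the highest library for Lep and Retn. The 8 mesothelium markers summed to 103 to 167 FPKM in RAS libraries, against 31.9, 207 and 260 FPKM in controls 1, 2 and 3, with control 1 the lowest. The part of the FPKM totals or of either marker set in the adipokine values was not tested. For Lep and Apln the difference kept its sign without RAS 3 (-0.64 and -0.94) and without control 1 (-0.47 and -0.91).

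Genes that carry the leptin signal inside cells were lower in 11 of 16 cases and higher in 5 (median log2 difference -0.10), against 7190 lower and 5416 higher of all genes tested. None passed over all genes. Lepr, the leptin receptor, was at 2.74, 2.22 and 2.00 FPKM in RAS 1, 2 and 3, against 2.31, 2.63 and 5.31 FPKM in controls 1, 2 and 3, so that the log2 difference of -0.36 was -0.07 without control 3. Socs3, a feedback inhibitor that leptin induces through Stat3, averaged 1.96 ± 0.15 FPKM in RAS samples and 3.06 ± 0.85 FPKM in control samples (log2 difference -0.44, limma adjusted p = 0.447). Cish, another inhibitor of the same family, was at 2.93, 8.71 and 5.23 FPKM in RAS 1, 2 and 3, against 4.09, 2.13 and 1.76 FPKM in controls 1, 2 and 3, and had the largest positive difference of the list (log2 difference 0.81, and 0.49 without RAS 2; unadjusted p = 0.0561, limma adjusted p = 0.493). Ptpn1, a phosphatase that turns off leptin and insulin receptor signals, averaged 10.1 ± 0.95 FPKM in RAS samples and 12.7 ± 0.89 FPKM in control samples (log2 difference -0.30). Pik3r1, a regulatory subunit of PI3-kinase, averaged 35.0 ± 2.54 FPKM in RAS samples and 68.5 ± 21.9 FPKM in control samples (log2 difference -0.91, limma adjusted p = 0.283). The ranges of the groups were apart for Socs3, Ptpn1 and Pik3r1 and overlapped for Lepr and Cish.

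Adiponectin receptors and their AMPK arm went both ways, 7 higher and 7 lower of 14 tested (median 0.01), with 0 past the threshold. Adipor2, the receptor tied to Ppara, was at 217, 251 and 191 FPKM in RAS 1, 2 and 3, against 203, 163 and 134 FPKM in controls 1, 2 and 3 (log2 difference 0.41, limma adjusted p = 0.531). The groups overlapped through RAS 3 and control 1. Adipor1, the receptor tied to AMPK, differed by 0.07 and Cdh13, which binds adiponectin multimers at the cell surface, by 0.26 (0.09 without control 3, 0.15 without RAS 1 and 0.42 without control 1), each with overlapping groups. Ppara averaged 3.63 ± 0.72 FPKM in RAS samples and 1.82 ± 0.63 FPKM in control samples (log2 difference 0.73, limma adjusted p = 0.347). The AMPK subunit gene Prkab2 (log2 difference -0.37) and the upstream kinase gene Camkk2 (-0.39) had no overlap between groups. Of all genes tested, 7190 were lower and 5416 higher (median log2 difference -0.04). Of 12 genes for folding and secretion of adiponectin, 12 had a negative log2 difference (median -0.11, from -0.60 to -0.007), and 0 passed. The number lower was 9 of 12 with median-ratio size factors and 10 of 12 with the scaled counts, and between 9 and 12 when 1 library was left out, with 9 without RAS 1 or control 1. Hspa5, the main chaperone of the endoplasmic reticulum, averaged 135 ± 19.7 FPKM in RAS samples and 206 ± 37.4 FPKM in control samples, and Pdia4 had a log2 difference of -0.29.

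In the alternative complement pathway, which adipsin starts, 4 of 9 tested genes were higher and 5 lower (median -0.02), with 0 past the threshold. The median turned to 0.02 with median-ratio size factors and 0.08 with the scaled counts, which placed 6 of 9 higher; it was 0.07 without RAS 1, 0.01 without RAS 3 and 0.04 without control 3. C3, the central component, was at 217, 414 and 344 FPKM in RAS 1, 2 and 3, against 192, 295 and 362 FPKM in controls 1, 2 and 3. Cfb, the substrate of adipsin, averaged 67.2 ± 5.12 FPKM in RAS samples and 75.3 ± 11.3 FPKM in control samples. C3ar1, the receptor of the C3a fragment, differed by -0.05. Cd55, which takes apart the enzyme complexes that adipsin helps to form, averaged 16.4 ± 3.09 FPKM in RAS samples and 22.5 ± 3.72 FPKM in control samples (log2 difference -0.44, limma adjusted p = 0.463). The ranges of the groups overlapped for each of these 4 genes.

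All 3 chemerin receptor genes had a higher mean with RAS, and none passed. Cmklr1, the signalling receptor, was at 82.1, 73.1 and 76.0 FPKM in RAS 1, 2 and 3, against 60.0, 77.0 and 72.8 FPKM in controls 1, 2 and 3 (log2 difference 0.14, and 0.04 without control 1). Gpr1, a second receptor, was at 3.42, 3.10 and 3.97 FPKM in RAS samples, against 2.36, 2.24 and 2.21 FPKM in control samples (log2 difference 0.46, limma adjusted p = 0.315). Ccrl2, which holds chemerin at the cell surface without signalling, was at 1.86, 2.04 and 1.93 FPKM in RAS samples, against 1.44, 1.42 and 1.58 FPKM in control samples (log2 difference 0.25). The groups were apart for Gpr1 and Ccrl2 and overlapped for Cmklr1. Gpr1 rested on 51 to 89 reads per library and Ccrl2 on 45 to 62. With the proteases that process chemerin, 6 of 9 tested genes were higher and 3 lower (median 0.13). Among the lower, the mast cell tryptase gene Tpsab1 had a log2 difference of -1.06 with overlapping groups. Tpsab1 rested on only 2 to 62 reads per library, and its difference lay between -2.05 and -0.69 in the alternatives. The other lower genes of the list differed by -0.37 and -0.29.

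Aplnr, the apelin receptor of endothelial cells, was at 6.79, 11.5 and 4.31 FPKM in RAS 1, 2 and 3, against 22.0, 13.1 and 10.4 FPKM in controls 1, 2 and 3. RAS 2 stood above control 3, so the groups overlapped, and the log2 difference was -0.94 (95% interval -1.79 to -0.10; limma adjusted p = 0.441). Mme, neprilysin, a peptidase that degrades apelin, differed by -0.22 with overlapping groups. Epas1, the hypoxia factor HIF-2 alpha, averaged 99.9 ± 9.83 FPKM in RAS samples and 80.4 ± 1.32 FPKM in control samples, apart between groups (log2 difference 0.30, limma adjusted p = 0.473). Of the 6 tested genes of the apelin system, 5 were lower and 1 higher, with 0 past the threshold. Of all genes tested, 7190 were lower and 5416 higher. With sample weights, and without control 1, the apelin split was 4 lower and 2 higher.

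In NAD salvage, where Nampt acts, 9 of 13 tested genes were higher and 4 lower (median 0.07), with 0 past the threshold. Without RAS 3, 6 were higher and 7 lower (median -0.00). Nmnat1 and Nmnat3, the enzymes that complete NAD after Nampt, differed by 0.24 and 0.15, Nnmt, which methylates the substrate of Nampt, by -0.08, and the NAD-dependent deacetylase Sirt1 by 0.11, each with overlapping groups. Cd38, an enzyme that consumes NAD, was at 6.95, 6.85 and 6.07 FPKM in RAS samples, against 8.46, 8.71 and 8.55 FPKM in control samples, apart between groups (log2 difference -0.33, limma adjusted p = 0.355). Of the resistin family and its binding proteins, 1 of 6 was higher and 5 lower. The split was 2 higher and 4 lower with the scaled counts and without RAS 3, control 2 or control 3. Retnla, a resistin relative of alternatively activated macrophages and fat, was at 464, 701 and 514 FPKM in RAS 1, 2 and 3, against 789, 770 and 669 FPKM in controls 1, 2 and 3, with RAS 2 above control 3. Cap1, a binding protein of resistin in human cells, averaged 71.1 ± 2.31 FPKM in RAS samples and 82.8 ± 6.84 FPKM in control samples (log2 difference -0.22).

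**Figure D4:**
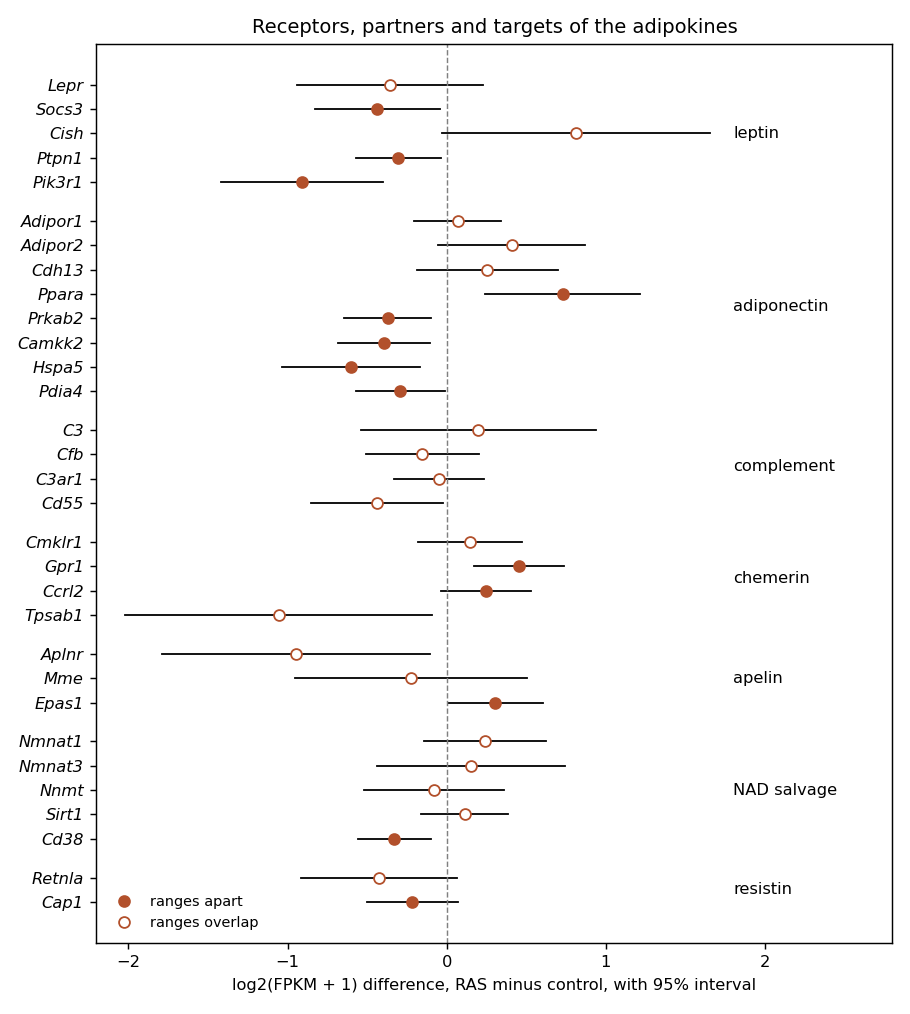
Log2(FPKM + 1) difference, RAS minus control, of receptors, partners and targets of the adipokines, with unadjusted 95% intervals from limma, grouped by adipokine; filled points mark genes whose groups did not overlap. Of the genes plotted, Tpsab1, Aplnr and Pik3r1 lie farthest below 0 (-1.06, -0.94 and -0.91), and Cish and Ppara farthest above 0 (0.81 and 0.73). Tpsab1 rests on 2 to 62 reads per library.

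Among 37 tested genes of other factors secreted by fat, 18 were higher and 19 lower (median -0.04), with 0 past the threshold. There was no overlap between groups for 5 of these 37 with RAS higher and for 4 with RAS lower, against 5.42% and 12.5% of all genes tested. Without RAS 1 or without control 3 the median turned to 0.07, without control 2 to 0.02, and without control 1 it was -0.14. Ccl2, the monocyte chemokine, was at 1.83, 1.63 and 1.57 FPKM in RAS samples, against 4.24, 4.30 and 4.21 FPKM in control samples (log2 difference -0.97, limma adjusted p = 0.138). Ccl2 rested on only 16 to 51 reads per library, so the closeness of its values within a group is not a sign of precision. The adiponectin relatives C1qtnf7 (log2 difference -0.84) and C1qtnf5 (-0.52) had no overlap between groups. Vegfa, the endothelial growth factor, averaged 104 ± 23.6 FPKM in RAS samples and 61.7 ± 2.31 FPKM in control samples. Of 18 regulators of adipokine genes, 7 were higher and 11 lower (median -0.10). The split was 9 and 9 without control 1 (median -0.00) and without RAS 1 (median -0.04). Foxo1, the insulin-restrained transcription factor, averaged 24.0 ± 2.93 FPKM in RAS samples and 35.9 ± 2.69 FPKM in control samples (log2 difference -0.56, limma adjusted p = 0.274).

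Markers were used to check the labelled tissue. The 18 mature adipocyte markers were present in every library and summed to 47731 to 61828 FPKM in RAS libraries and 35131 to 49467 FPKM in control libraries, most of it Fabp4. Of the 18, 13 were higher and 5 lower (median log2 difference 0.12), and the median was -0.02 without control 3. Groups were apart for 5 of the 18 with RAS higher and 0 with RAS lower, against 5.42% and 12.5% of all genes tested. In order of p the list was led by Aqp7, Pnpla2, Fabp4 and Cidec, with differences of 0.50, 0.42, 0.71 and 0.41. Over the alternatives Fabp4 ran from almost no difference (2.0e-15) to 0.86. The low end came from quantile normalization, which gives a gene of unchanged rank the same value in every library. Summed macrophage markers (15 genes) were at 729 to 956 FPKM in RAS libraries and 689 to 976 FPKM in control libraries, and 12 endothelial markers at 437 to 623 FPKM in RAS libraries and 499 to 580 FPKM in control libraries. The 8 neutrophil markers found came to 13.998 to 24.0 FPKM in RAS libraries and 9.78 to 19.2 FPKM in control libraries, with Ngp, Camp and Mpo listed at 0 in at least 1 library. Liver markers summed to 9.34 to 13.9 FPKM in RAS libraries and 9.89 to 160 FPKM in control libraries, highest in control 3. Those liver sums overlapped between groups. Skeletal muscle markers (9 genes, Myh4 and Pvalb listed at 0 in at least 1 library) summed to 22.6 to 60.8 FPKM in RAS libraries and 69.1 to 202 FPKM in control libraries, a sum that was apart between groups as Lep and Apln were. The part of muscle and liver RNA in the adipokine values was not tested.

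The genes whose pattern over the 6 libraries was nearest to that of Lep were found by the root mean square distance between log2(FPKM + 1) profiles, each centred on its own mean, over 11160 named genes. The 5 nearest were Pold2, a DNA polymerase delta subunit (distance 0.07), the clock activator Clock (0.08), Pinx1, an inhibitor of telomerase (0.08), Lmnb2, a nuclear lamin (0.10), and Apex2, a DNA repair nuclease (0.10). Clock, for example, averaged 6.59 ± 0.64 FPKM in RAS samples and 11.3 ± 2.55 FPKM in control samples. Among the other members, Apln was the nearest to Lep, at a distance of 0.28 and place 1514 of the named genes, and Cfd the farthest, at 0.67. The genes nearest to Apln were C1qtnf7 (0.14) and Prkcdbp, a caveola coat protein (0.16), which averaged 157 FPKM in RAS samples and 298 FPKM in control samples. The nearest to the other members were Nprl2 and Tmem59 for Adipoq, Adra1a and Rxrg for Retn, Gulp1 and Acrbp for Cfd, Emg1 and Lemd2 for Rarres2, and Brcc3 and Donson for Nampt, at distances of 0.03 to 0.19. With 6 libraries, such nearness describes these libraries and tests nothing.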

How the data were processed

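Adipose tissue RNA of 6 samples, 3 RAS and 3 control, was measured by sequencing of poly(A) RNA, made into TruSeq libraries with random primers per the labels' protocols. The submitters' processing notes list TopHat2 2.0.9 and Cufflinks 2.1.1; build and annotation are not given in the sources used. The authors deposited FPKM per sample, used as given. They also deposited a scaled count signal per gene: 99.1 to 99.2% of its values under 200 were multiples (tolerance 0.02 reads) of a library factor of 0.911 to 1.06. Divided by that factor, libraries held 14.4 to 15.7 M assigned reads; no count model was run. Columns carrying the RAS group's name were taken as RAS and the other numbered set as control, by elimination. The 4 group-level columns were left out. Table loci overlapped the GENCODE M21 gene (GRCm38) of the same identifier for 99.7% of 18403 genes; coordinates are the table's, counted from 1.

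The 12606 genes averaging 1 FPKM or more were tested with limma (lmFit and trended eBayes), RAS minus control on log2(FPKM + 1), two-sided, with Benjamini-Hochberg adjustment over all of them and a threshold of 0.05; the scale understates changes of low genes. The test was checked on simulated data. Members, gene lists, tests, the naming rule and alternatives were chosen with earlier results of these data known. Named genes are the members, their receptors and direct partners, up to 4 further genes per list by p, the nearest patterns (5 for Lep, 2 for other members) and, outside the rule, 3 C/EBP genes chosen after their values were seen. Tools were R 4.3.3, limma 3.58.1, Python 3.11.15, pandas 2.3.3, numpy 2.4.6, scipy 1.17.1 and matplotlib 3.10.9.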

Additional observations from a re-analysis of the deposited data

How the results depend on the processing

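Lep kept its direction in 15 of 15 alternatives, with log2 differences of -0.83 (quantile normalization) to -0.47 (without control 1) and limma adjusted p of 0.213 to 0.573. Apln kept its direction in 14 of 14, from -1.20 to -0.89 (adjusted p 0.127 to 0.532); a minimum mean FPKM of 5 removed it. Adipoq (0.06 to 0.33), Rarres2 (-0.35 to -0.00) and Nampt (0.02 to 0.21) kept theirs in 15 of 15. Some alternatives could not change a log2 difference: robust eBayes, the replicate block, and another or no minimum FPKM. Their place in these counts, and in that of the named genes below, was fixed in advance. The difference between groups in the log2 ratio of leptin to adiponectin, RAS minus control, lay between -0.9995 and -0.68. Leaving out 1 library gave -0.27 to 0.19 for Retn, -0.25 to 0.47 for Cfd, -0.057 to 0.46 for C3, -0.14 to 0.022 for C3ar1, -0.52 to 0.054 for Mme, -0.020 to 0.41 for Nmnat3, -0.22 to 0.080 for Nnmt, -0.092 to 0.12 for Cebpa and -0.57 to 0.15 for Cebpb. Sample weights turned Retn (0.033), Cfd (-0.25), C3 (-0.055) and Mme (0.12), quantile normalization turned Cfd (-0.11), C3ar1 (0.0038) and Cebpa (-0.15), and the scaled counts, added after seeing the data, turned C3ar1 (0.037) and Cebpa (-0.020). The cause was not tested. The other 42 of 49 named genes that are not members were not reversed in any alternative. Of these, Fabp4 had almost no difference (2.0e-15) under quantile normalization. That method gives a gene of unchanged rank the same value in every library, so this result was fixed by the method. Genes past the threshold numbered 0 to 2 when 1 library was left out (1 without RAS 1, 1 without RAS 2 and 2 without control 1), none of them an adipokine, and 0 in the other alternatives. The labels name no pairs, so the sample numbers were not taken as pairs. Same-numbered samples of the groups did deviate together, with correlations of 0.178, 0.096 and 0.219. With the replicate number as a block, 0 genes passed limma's adjusted threshold, 1663 had an unadjusted p under 0.05, and Lep and Apln had adjusted p of 0.280 and 0.262; every sample correlated best with its own number, a hint from the data and not the design.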
